A study of Drosophila melanogaster with 2 samples.

Results

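The Hox genes and their cofactors were described here as regions bound by pebbled (peb), the zinc finger transcription factor of Drosophila melanogaster also called hindsight and related to mammalian RREB1. The set held 10 of the 13968 protein-coding genes of the annotation: lab, pb, Dfd, Scr, Antp, Ubx, abd-A, Abd-B and the cofactor genes exd and hth. The genes were listed by name, and the rule uses no signal value. A peak was assigned to a gene when its summit lay in the gene body, within 20000 bp of it, or closest to one of that gene's transcription start sites (TSS) among all protein-coding ones. By this rule 22 of the 2841 peaks called jointly on both replicates were assigned, in 20 separate regions, and 1 of them was assigned to both Dfd and Scr.

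Whole embryos aged 0 to 24 h of a transgenic line making a peb-eGFP fusion were used, chromatin was sonicated to 200 to 800 bp, and the fusion was precipitated with anti-GFP. There were 2 biological replicates and 1 group, with no other genotype, stage or treatment in the lists. All cell types and all embryonic ages of that day were mixed, so a peak in few cells cannot be told apart from a weak peak in many. The labels did not say whether an untagged copy of peb was also present. The jointly called list held 2845 peaks, the list of replicate 1 held 1418 and that of replicate 2 held 2054. Longer lists with no threshold, the ranked lists, held 68609 entries for replicate 1 and 49814 for replicate 2. The lists gave no read counts, so the depth is unknown.

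Hox genes encode homeodomain transcription factors that give the segments of the body their identities along the head to tail axis. In flies they lie in the Antennapedia complex, which serves the head and anterior thorax, and the bithorax complex, which serves the posterior thorax and abdomen, roughly in the order of the segments in which they act. Exd, the fly homologue of PBX, and Hth, the homologue of MEIS, bind DNA with Hox proteins, and Hth brings Exd into the nucleus. Peb is known in the embryo for its role in the amnioserosa, the midgut and the tracheal system, and in germ band retraction.

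The sequences under 8 of the summits are shown as examples, picked after their values and letters were seen. They are the strongest Antp, hth, abd-A and Abd-B peaks, the Antp peak in both replicates' lists, the region between Dfd and Scr, and 1 further region each of hth and abd-A that holds GTGCAC, a palindrome described with the patterns. Each runs from 100 bp before to 100 bp after the summit on the plus strand of dm6. Capitals mark GTGCA and GAGAG, the binding core of GAGA factor, on either strand (TGCAC and CTCTC), and adjoining or overlapping matches run together.

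Between Dfd and Scr, chr3R:6818628-6818828: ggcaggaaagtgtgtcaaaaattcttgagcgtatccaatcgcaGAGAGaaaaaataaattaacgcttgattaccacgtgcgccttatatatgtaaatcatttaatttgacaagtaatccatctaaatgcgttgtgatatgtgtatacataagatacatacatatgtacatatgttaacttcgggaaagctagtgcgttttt

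Antp intron, strongest Antp peak, chr3R:6920104-6920304: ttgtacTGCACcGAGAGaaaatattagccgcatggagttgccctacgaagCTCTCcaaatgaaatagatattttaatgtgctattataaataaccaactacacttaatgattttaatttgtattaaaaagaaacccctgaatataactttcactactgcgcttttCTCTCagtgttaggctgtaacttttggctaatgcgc

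Antp intron, peak of both replicates, chr3R:6914453-6914653: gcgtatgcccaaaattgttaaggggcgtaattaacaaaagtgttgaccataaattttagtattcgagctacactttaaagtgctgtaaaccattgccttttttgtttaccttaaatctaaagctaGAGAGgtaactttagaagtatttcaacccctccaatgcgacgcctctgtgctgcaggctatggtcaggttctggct

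hth intron, chr3R:10564381-10564581: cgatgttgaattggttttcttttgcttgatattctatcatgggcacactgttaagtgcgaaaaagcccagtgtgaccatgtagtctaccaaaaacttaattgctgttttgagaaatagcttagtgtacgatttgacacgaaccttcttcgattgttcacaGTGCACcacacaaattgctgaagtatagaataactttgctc

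hth intron, strongest hth peak, chr3R:10597676-10597876: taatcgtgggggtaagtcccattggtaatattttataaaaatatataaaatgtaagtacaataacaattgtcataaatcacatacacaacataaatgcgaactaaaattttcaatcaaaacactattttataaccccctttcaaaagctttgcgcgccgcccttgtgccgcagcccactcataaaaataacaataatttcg

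Downstream of abd-A, strongest abd-A peak, chr3R:16798822-16799022: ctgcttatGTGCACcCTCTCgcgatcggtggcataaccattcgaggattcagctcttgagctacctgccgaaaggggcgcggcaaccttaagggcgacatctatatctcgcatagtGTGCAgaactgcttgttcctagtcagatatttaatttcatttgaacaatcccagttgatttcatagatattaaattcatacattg

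Upstream of abd-A, chr3R:16847258-16847458: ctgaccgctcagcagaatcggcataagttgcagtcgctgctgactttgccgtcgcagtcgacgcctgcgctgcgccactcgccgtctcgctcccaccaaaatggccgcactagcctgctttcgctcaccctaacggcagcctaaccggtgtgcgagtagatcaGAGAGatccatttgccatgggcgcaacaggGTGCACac

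Upstream of Abd-B, strongest peak of the set, chr3R:16986592-16986792: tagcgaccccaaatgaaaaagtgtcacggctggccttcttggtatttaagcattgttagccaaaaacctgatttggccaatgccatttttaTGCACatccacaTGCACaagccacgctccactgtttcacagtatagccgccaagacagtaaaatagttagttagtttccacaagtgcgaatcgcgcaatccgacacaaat

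Of the 10 genes, 7 had a peak by the rule, namely pb, Dfd, Scr, Antp, abd-A, Abd-B and hth, whereas lab, Ubx and exd had none. Under the same rule 63.4% of all protein-coding genes had a peak, so the count of 7 lies near the background. Among genes of 20000 bp or more, 6 of the 7 such members had a peak, against 69.9% of the 1020 genes of that length. A summit lay in the gene body of 3 members (Antp, Abd-B and hth), against 8.4% of all genes and 40.2% of those of 20000 bp or more. As 3 of 7 long members, this too lies near the background for long genes. For 5 members at least 1 peak had its nearest TSS at that gene, against 14.6% of all genes. The share among genes of 20000 bp or more was not computed for this count. It therefore takes no account of gene length.

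At their own TSSs none of the 10 genes carried a joint summit within 1000 bp, against 13.4% of all genes. For as few as 10 genes this lies near the background. The assigned summit closest to a TSS of its own gene was 1985 bp away, in Abd-B. Only 2 of the 22 assigned peaks lay within 1000 bp of any protein-coding TSS, 9.09% with an exact 95% interval of 1.12% to 29.2%, against 53.6% of all peaks. These were at bcd and CG18622. The median distance to the nearest TSS was 14023 bp for the assigned peaks and 777 bp for all peaks. In all, 16 of the 22 (72.7%, 49.8% to 89.3%) were more than 10000 bp away, against 11.2% of all peaks. The rule reaches across long genes and their flanks, and the members' lengths stood at the 70.1 (exd) to 99.7 (hth) percentile of all genes.

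**Figure D1:**
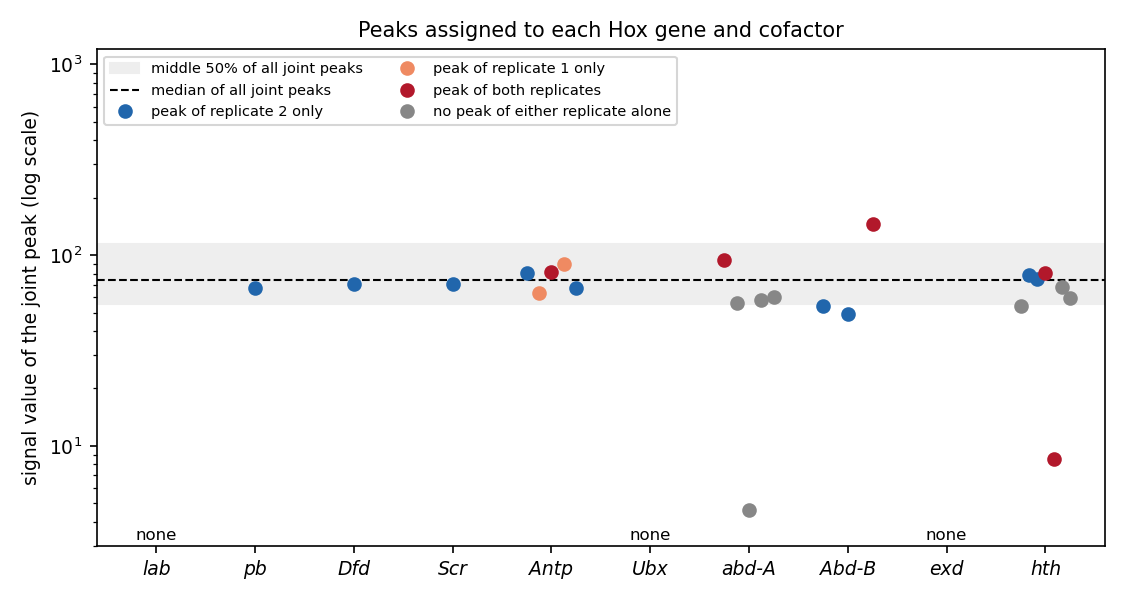
Signal value of each joint peak (log scale) by the gene it was assigned to, coloured by whether it overlapped a peak of each replicate's own list; the peak between Dfd and Scr is drawn for both. Most points lie in the grey band of the middle 50% of all joint peaks, from 55.3 to 114, the Abd-B flank peak at 145 is above it, and the entries at 8.59 and 4.60 are shoulders of a stronger neighbour; lab, Ubx and exd have none.

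The signal value deposited for each peak is the authors' own and ranks peaks within 1 list. Assigned peaks ran from 4.60 to 145 with a median of 67.2, and all joint peaks from 2.04 to 1055 with a median of 73.7. Among all joint peaks more than 5000 bp from a TSS the median was 69.6. The assigned peaks were thus of middling strength: their median stood at percentile 42 of the list, and 8 of the 22 were above the list's median. The lowest values, 8.59 at hth and 4.60 at abd-A, belonged to entries that overlapped a stronger entry of the same region.

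The Antennapedia complex, from the first base of lab to the last of Antp (chr3R:6661427-6999228, dm6), held 9 summits in 338 kb, of which 7 were assigned. This was 26.6 summits per Mb, against 19.4 per Mb in the rest of arm 3R and 20.7 over the 7 main chromosomes. The 9 include a shoulder entry of 10.5 at Ama, and a density over so few summits is a description only. In the list of replicate 2 alone the complex held 23.7 per Mb, against 13.6 in the rest of 3R. In that of replicate 1 alone it held 8.88 against 9.13, so there it was not denser. The joint summits were not spread evenly, since the first 98.2 kb, with all of lab and pb, held none of them.

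**Figure D2:**
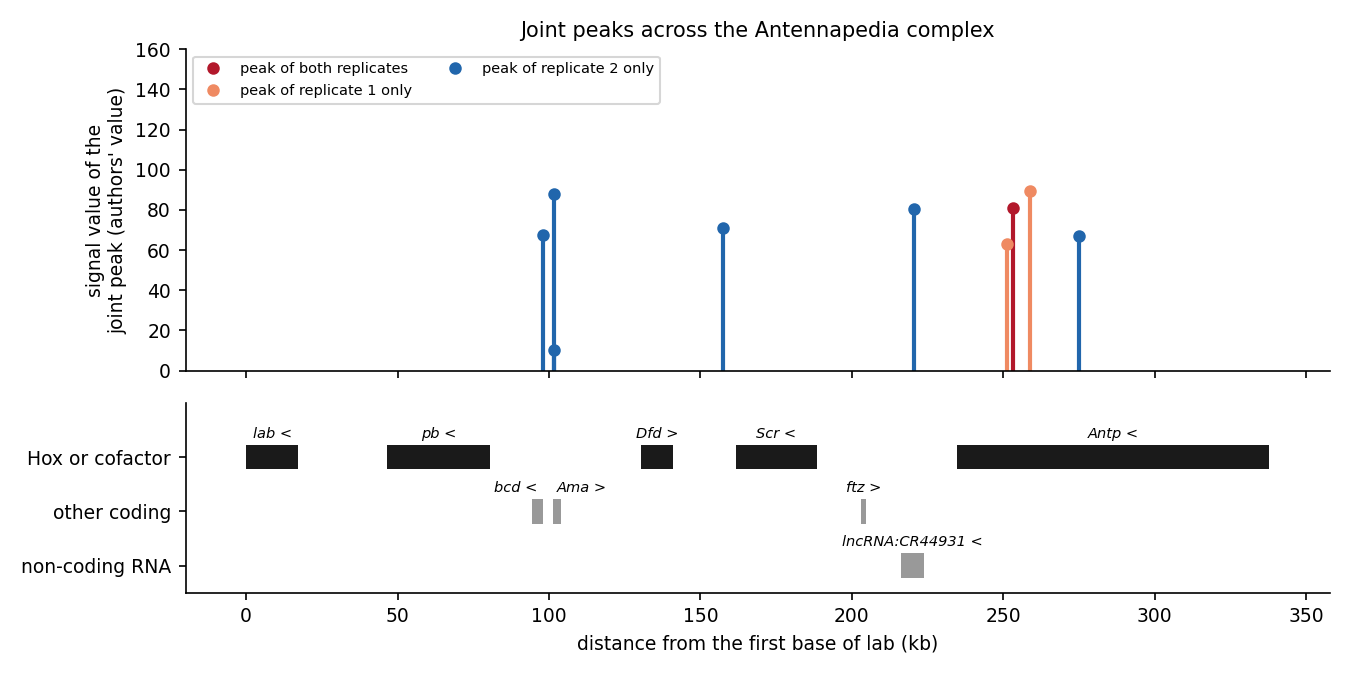
Joint peaks (stems, signal value) against distance from the first base of lab in kb, with genes drawn below and arrowheads giving the direction of transcription. The 9 summits start at 98.2 kb beside bcd, 4 fall in the body of Antp between 251 and 275 kb, and 1 of the 9 overlaps a peak of both replicates.

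The gene lab, which acts in the head and the midgut, had no joint peak, and neither replicate's own list held one for it. The nearest summit was 81009 bp from its body, beside bcd. The stretch of 332 kb without a summit around lab holds 35 protein-coding genes. In length it was matched or passed by 5 of the 627 such stretches on 3R, itself included (0.797%), where the median was 19.1 kb. Together those 5 made up 5.65% of the arm's length. In the ranked lists the best entry within 1000 bp of a lab TSS had a signal of 22.6 in replicate 1 and 11.0 in replicate 2. These stood at the 82.5 and 46.4 percentile of all genes, so entries below the threshold were present in both.

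The gene pb, which specifies mouthparts, had 1 joint peak (chr3R:6759437-6759760), 17536 bp upstream of it. The signal was 67.4 in the joint list and 39.3 in the list of replicate 2, and in the ranked list of replicate 1 an entry of 32.0 lay there without reaching the threshold. The summit was 133 bp upstream of the TSS of bcd, the maternal anterior determinant, in intergenic sequence, so pb holds it only through the distance part of the rule. Just outside that distance, at 20937 bp, lay an unassigned peak of 88.0 in an intron of Ama, and 1 of its shoulder entries at 21137 bp. By the rule the list of replicate 2 alone gave pb 2 peaks, and the position of the second was not examined.

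Dfd, which specifies the mandibular and maxillary segments, and Scr, which acts in the labial and anterior thoracic segments and the salivary gland, shared 1 peak (chr3R:6818566-6818889). It lay in intergenic sequence 16300 bp beyond the 3′ end of Dfd and 4392 bp beyond that of Scr, since the genes point towards each other. The joint signal was 70.9 and the list of replicate 2 gave 43.2. Replicate 1 had only a ranked entry of 27.9, at rank 2253. Its window held GAGAG and no GTGCA.

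Antp, which specifies thoracic segments and legs, had 5 peaks, 4 of them in its introns. The intronic summits spanned 23.8 kb, and those sequences are also introns of the coding gene CG46458, so they cannot be given to 1 of these genes by position. The gene body of 102976 bp thus held 3.88 summits per 100 kb, against 2.07 per 100 kb over the main chromosomes. Antp has 3 annotated TSSs, and all 4 summits were nearest to the one closest to the 3′ end.

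The strongest Antp peak (chr3R:6920042-6920365) lay 12636 bp downstream of that TSS, with a joint signal of 89.5, the list of replicate 1 giving 57.5 and the ranked list of replicate 2 giving 31.3. The next (chr3R:6914391-6914714), 18287 bp downstream, had a joint signal of 81.2 and was in both replicates' own lists, at 50.9 and 30.3. The third (chr3R:6912376-6912699), 20302 bp downstream, gave 63.0, with 38.2 in the list of replicate 1 and a ranked entry of 23.4 in replicate 2. These 3 neighbours stood higher in replicate 1, at ranks 603, 772 and 1220 of its ranked list, against 2301, 2414 and 3775 in replicate 2. The intronic peak 3500 bp upstream of the same TSS (chr3R:6936178-6936501) had a joint signal of 67.0 and only replicate 2 passed the threshold, at 35.6. Its ranks were close, 2018 in replicate 1 and 1884 in replicate 2.

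The fifth Antp peak (chr3R:6881696-6882019) lay 14395 bp beyond the 3′ end of Antp, in an intron of lncRNA:CR44931. Its nearest coding TSS was that of ftz, a pair-rule gene, 17534 bp away. The joint signal was 80.5 and the list of replicate 2 gave 51.1, and the ranked entry of replicate 1 was 33.0.

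The bithorax complex, from the first base of Ubx to the last of Abd-B (chr3R:16656623-16972236), held 8 summits in 316 kb, 25.3 per Mb. In the list of replicate 1 alone it held 6.34 per Mb and in that of replicate 2 alone 12.7, both below the 9.13 and 13.6 in the rest of 3R. Of the 8 joint summits 7 were assigned. All 8 lay in the part from abd-A's 3′ flank to Abd-B, none within 1000 bp of a protein-coding TSS, and their median signal of 57.0 was below the 70.7 of the rest of 3R. In the Antennapedia complex the median was 70.9. A peak in either replicate's own list was missing at 4 of the 8, 1 of them a shoulder, against 0 of the 9 in the Antennapedia complex and 157 of the 611 in the rest of 3R.

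**Figure D3:**
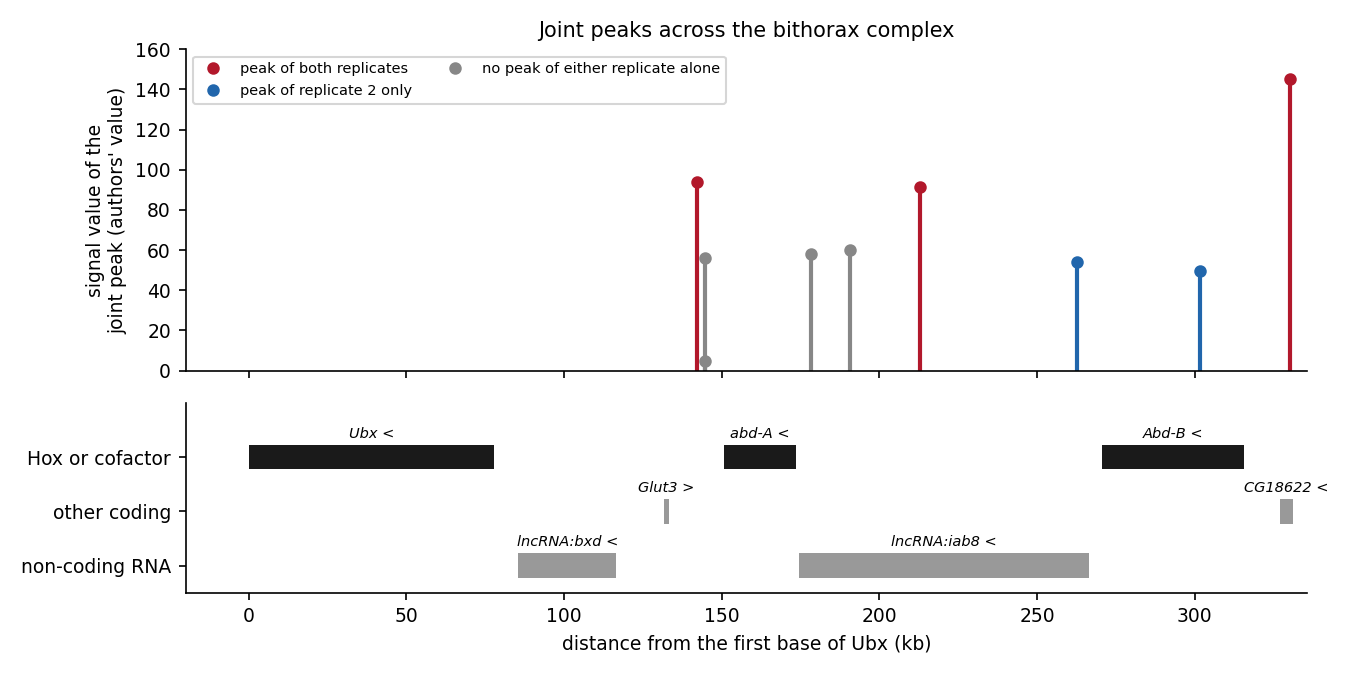
Joint peaks (stems, signal value) against distance from the first base of Ubx in kb, with genes below as in the map of the Antennapedia complex; the stem at 330 kb lies outside the complex. No summit falls in Ubx, and 3 stems, at 142, 213 and 330 kb, are peaks of both replicates.

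Ubx, which specifies the posterior thorax and the haltere, had no peak in the joint list or in either replicate's own list. Its body of 77804 bp is at the 99.0 percentile of gene lengths, and the nearest summit, of 93.9, was 64496 bp away. The stretch of 274 kb without a summit held 23 coding genes, and 12 of the 627 stretches on 3R (1.91%) were as long. Together those 12 made up 12.1% of the arm's length. Ranked entries were still found in the body of Ubx, at 8.61 per 10 kb in the joint ranked list, against 7.14 on 3R as a whole. The strongest had a signal of 35.1 and a rank of 5431. The promoter of Ubx had a ranked entry of 17.7 in replicate 1 and none in replicate 2.

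The gene abd-A, which patterns the anterior abdomen, had 5 assigned entries in 4 regions, none in its body. On its 3′ side, 8292 bp away, was the strongest (chr3R:16798760-16799083), in intergenic sequence, with a joint signal of 93.9. Its nearest coding TSS was that of Glut3, 10611 bp away, so abd-A holds this region only through the distance part of the rule. This region was in both replicates' own lists, at 58.2 and 39.6, and was the only abd-A region that was in either. A second region, 6041 bp from the gene (chr3R:16801011-16801334), lay in an exon of lncRNA:CR45750 with a joint signal of 56.0, and ranked entries of 31.0 in replicate 1 and 26.9 in replicate 2. Its shoulder entry of 4.60 lay in an exon of lncRNA:TS16. Both entries of this second region also had Glut3 as the nearest coding gene.

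On the 5′ side of abd-A were regions at 4812 bp (chr3R:16834699-16835022) and 17309 bp (chr3R:16847196-16847519) upstream of its TSS. Both lay in introns of lncRNA:iab8 and MSAmiP, whose transcription units cross the regulatory domains between abd-A and Abd-B. The joint signals were 57.9 and 60.3. The nearer one had a score of 859, the only assigned entry under the highest score of 1000. Ranked entries were 31.0 and 24.5 for the nearer region and 31.6 and 26.9 for the farther one, in replicates 1 and 2. Neither region passed the threshold in a replicate alone.

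Between them and Abd-B lay a peak of the complex that the rule gave to no member (chr3R:16869256-16869579), 39369 bp from abd-A and 26875 bp from the TSS of MSAmiP. Its signal was 91.6, and it was in both replicates' own lists, at 47.8 and 44.4.

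Abd-B, which specifies the posterior abdomen and genitalia, had 3 peaks. The first (chr3R:16919095-16919418) lay 7955 bp from its 3′ end in an intron of lncRNA:iab8, with a joint signal of 53.9, and the second (chr3R:16958134-16958457) in an Abd-B intron 1985 bp downstream of the nearest TSS, with 49.4. The list of replicate 2 held both, at 32.9 and 34.1. Replicate 1 had ranked entries of 19.6 and 18.5, at ranks 6253 and 7577, against ranks of 2144 and 2024 in replicate 2. Both were also missing from the list that the authors named conservative, which held the other 20 assigned peaks.

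The third Abd-B peak (chr3R:16986530-16986853) was the strongest of the whole set, at 145 and rank 456. It lay outside the complex, 14456 bp upstream of Abd-B, in an exon of CG18622 and 158 bp from that gene's TSS. Replicate 1 gave 68.7 and replicate 2 gave 76.0 in their own lists. As with the pb peak beside bcd, its position was that of another gene's promoter.

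The cofactor gene exd on X had no peak in the joint list or in either replicate's own list. The nearest summit (chrX:16090230-16090553), of 122 beside Tob, was 93883 bp away. Of the 549 stretches between summits on X, 13 (2.37%) were as long as the one of 222 kb around exd. Together those 13 made up 14.3% of the length of X. The best ranked promoter entry was 10.9 in replicate 1, at the 40.2 percentile of all genes, and 15.9 in replicate 2, at the 68.1 percentile. The gene is short, 4042 bp, and 3 entries of the joint ranked list lay in its body.

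The other cofactor gene, hth, had the most peaks of the set in the joint list: 7 entries in 6 regions, 6 entries in its introns. In the list of replicate 1 alone it had 1 peak, against 3 for Antp, and in that of replicate 2 alone 3, as Antp and Abd-B did. The gene body of 132008 bp held 4.55 summits per 100 kb with the shoulder entry counted, and all 7 entries had hth as the nearest coding gene. The regions spanned 112 kb and reached from 76918 bp downstream of the nearest TSS to 9378 bp upstream. No joint peak of the whole list lay farther from a TSS than the first of these.

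**Figure D4:**
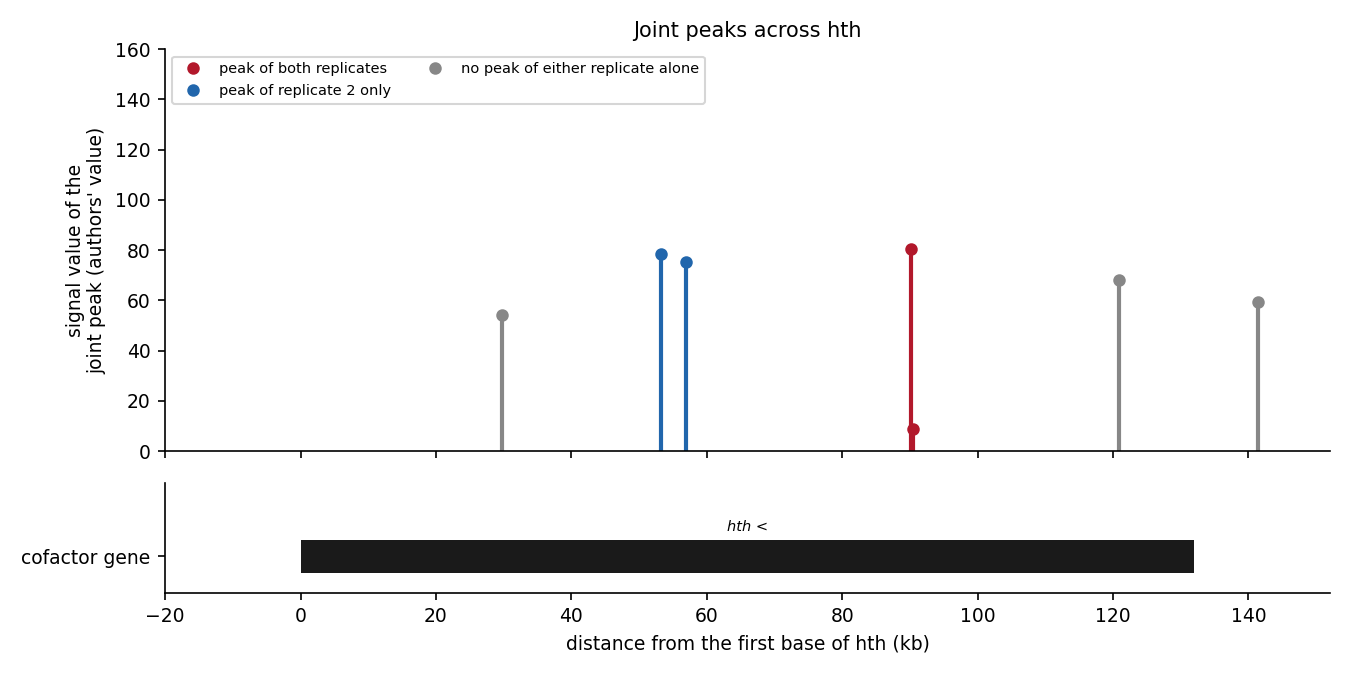
Joint peaks (stems, signal value) against distance from the first base of hth in kb, with the gene below, transcribed to the left. The 5 intronic regions and 1 upstream region are of similar height, from 54.2 to 80.3, and the stem of 8.59 is the shoulder of the peak of both replicates at 90.2 kb.

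The best replicated hth region (chr3R:10597614-10597937) had a joint signal of 80.3, and 39.1 and 40.7 in the replicates' own lists. It lay 16500 bp downstream of the TSS and carried the shoulder entry of 8.59. Farther into the gene, regions 53538 bp (chr3R:10560576-10560899) and 49795 bp (chr3R:10564319-10564642) downstream had joint signals of 78.5 and 75.1. The list of replicate 2 held these, at 40.5 and 43.3, and replicate 1 had ranked entries of 34.8 and 33.2. The replicates' ranks for both were close, 1472 and 1593 in replicate 1 against 1549 and 1393 in replicate 2.

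The remaining 3 hth regions were in neither replicate's own list. The most distant (chr3R:10537196-10537519) had a joint signal of 54.2, with ranked entries of 24.1 in replicate 1 and 37.9 in replicate 2. That near the 5′ end (chr3R:10628311-10628634) gave 68.3, with 28.8 and 34.6. The upstream intergenic one (chr3R:10648784-10649107) gave 59.4, with 24.9 and 30.2. All 3 joint signals were below those of the other 3 regions, and all 3 regions were in both ranked lists.

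The replicates differed in how many of the genes they held. By the rule 4 of the 10 genes had a peak in the list of replicate 1 (Antp, abd-A, Abd-B and hth), against 44.8% of all genes, and 7 of 10 in that of replicate 2, against 55.7%. For as few as 10 genes both counts lie near the background. Of the 22 assigned peaks, 7 overlapped a peak of replicate 1 (31.8%, 13.9% to 54.9%), against 48.0% of all joint peaks, and 13 a peak of replicate 2 (59.1%, 36.4% to 79.3%), against 68.9%. Both replicates' lists held 5 (22.7%, 7.82% to 45.4%), against 40.8%, and 7 were in neither (31.8%, 13.9% to 54.9%), against 23.9%. Each of these intervals includes the share of all peaks. All 22 overlapped an entry in both ranked lists, as 98.2% of all joint peaks did.

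**Figure D5:**
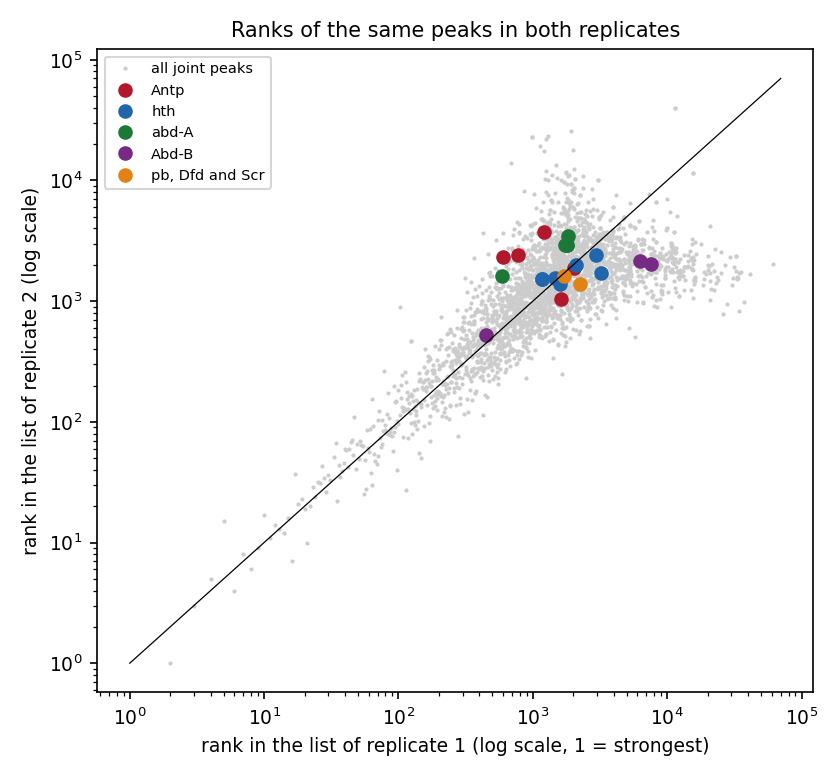
Rank of each joint peak in the ranked list of replicate 1 against that of replicate 2 (both axes log scale, 1 is the strongest; the line marks equal rank), with all joint peaks in grey. Of the 4 intronic Antp peaks 3 lie above the line, higher placed in replicate 1, and 2 Abd-B points lie far to the right, at ranks 6253 and 7577 in replicate 1.

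Over the 20 separate regions, 10 ranked higher in each replicate, and of all joint peaks 45.8% ranked higher in replicate 1. Spearman's rho between the replicates' ranks was 0.241 over these 20 regions and 0.679 over the 2791 joint peaks found in both ranked lists. The assigned regions lack the strongest peaks, since their ranks began at 451 in replicate 1 and 524 in replicate 2, and the correlation over a narrow range of ranks is a description only. Their median ranks, over the 22 entries, were 1718 and 1932, against 1431 and 1412 for all.

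At the promoters of the members the joint ranked list held entries, although none was a peak of the joint thresholded list. In the joint ranked list 9 of the 10 genes had such an entry within 1000 bp of a TSS, as 85.0% of all genes did, and pb had none there. The signals ran from 18.5 at Ubx to 37.6 at Dfd, and the median of all genes with an entry was 24.5. Next to Dfd came lab at 33.9, hth at 32.9 and Antp at 31.9. In the ranked lists of single replicates pb had 34.8 in replicate 2 and no entry in replicate 1. Whether that entry passed the threshold of replicate 2 was not examined. Dfd had 24.9 in replicate 1 and 15.7 in replicate 2.

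The letters under the summits were searched, on both strands and within 100 bp of the summit, for 14 patterns, most of them bound by known fly factors. GAGAG was in 8 of 22 windows (36.4%, 17.2% to 59.3%), against 24.5% of all joint peaks, with up to 4 matches in the hth window near the 5′ end. GCCAT, the core of the site of Pho, which recruits Polycomb proteins, was in 7 (31.8%, 13.9% to 54.9%), against 26.0%. TGATTNA, bound by Hox proteins with Exd, was in 4 (18.2%, 5.19% to 40.3%), against 16.0%, with 2 matches each in the best replicated and the most distant hth windows. The Hth pattern TGACAG was in 3 (13.6%, 2.91% to 34.9%), against 5.98%, and TAATTA, bound by homeodomains, in 4, against 17.0%. Each of these intervals includes the share of all peaks.

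CCACCCC, part of the mammalian RREB1 motif, was in none of the 22 windows and in 2.39% of all. ATCGATA, known as the site of DREF, was in none, against 5.49% of all and 1.14% of the 1317 peaks more than 1000 bp from a TSS. CGATA was in 3 windows, against 25.4%, CACACA in 2, against 15.8%, and GGGCGCT in none, against 1.02%. CACGTG was in 2, between Dfd and Scr and in hth, against 2.39%. CAGGTA, bound by Zelda, was in 1, against 4.61%, ACCGGTT, bound by Grh, in 1, against 0.845%, and GTCACAC in 1, against 2.71%.

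Another pattern, GTGCA, was chosen after these windows were read, so its counts describe them and test nothing. It was in 15 of 22 windows (68.2%), against 37.6% of all joint peaks and 44.4% of the 1317 distal ones. Its palindrome GTGCAC, each match of which also holds GTGCA on both strands, was in 9 (40.9%), against 9.12% and 11.9%. In windows of the same size centred 1000 bp to either side, GTGCA was in 5 and 6 of the 22, against 30.4% and 30.8% for all joint peaks. There GTGCAC was in 1 and 0, against 3.87% and 4.89%. As the pattern was read from the summit windows, lower counts beside them test nothing either. All 4 separate abd-A regions, 5 of the 6 hth regions and 4 of the 5 Antp peaks held GTGCA. The windows without it were those between Dfd and Scr, the Antp and the hth peak in both replicates' lists, both weaker Abd-B peaks and both shoulders.

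The distance of the matches from the summit varied. The nearest one in each window lay 0 to 95 bp away with a median of 57 bp, against 51 bp over the 1069 windows with a match among all joint peaks. Within 50 bp of the summit only 5 of 22 windows held GTGCA (22.7%), close to the 17.6% of all peaks. Within 200 bp 18 did (81.8%), against 61.4%. The last pattern read from the windows, CAGTG, was in 12 (54.5%), against 49.5%. The GC content of the windows had a median of 37.3%, against 35.3% for all peaks and 35.8% for the distal ones.

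The early genes that lie among the Hox genes of the Antennapedia complex were ftz, zen, zen2, bcd and Ama, and all 5 had a peak by the rule, against 63.4% of all genes. The peaks of zen, zen2, bcd and Ama are the same 3 entries, since these genes lie close together, and that of ftz is the one on the 3′ side of Antp. Only at bcd and Ama was a summit as close as 1000 bp to the start site. Over only 5 genes that share entries, these counts are a description only. Of all 15 coding genes of the Antennapedia complex besides the Hox genes, these 5 included, 7 had a peak by the rule (46.7%). In the bithorax complex 2 of the 3 such genes did (66.7%). A further list held 9 other homeodomain and zinc finger genes known as partners or relatives of the cofactors and trunk genes. Of these, 3 had a peak by the rule (33.3%, against 63.4% of all genes), and none within 1000 bp of a TSS, against 13.4%. Over only 9 genes these counts are a description only. The 3 genes were disco-r, with 196 beside CG42353, tio, with 53.7 in no replicate's own list, and tsh, with 49.8 likewise.

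Of 15 genes known as Hox targets in the fly, 12 had a peak by the rule (80%, against 63.4% of all genes). Within 1000 bp of a TSS 3 had one (20%), where all genes were at 13.4%. For as few as 15 genes both counts lie near the background. The list was also chosen with earlier results of these data known. The peak of Dll, the limb gene repressed by abdominal Hox proteins, had a joint signal of 196, 122 bp from its TSS, with 139 in replicate 1 and 56.3 in replicate 2. That assigned to bap, a midgut muscle gene, had 222, with 99.6 and 122, but lay 219 bp from the TSS of tin. The strongest of the 6 peaks of vvl had 156, with 80.3 and 72.9, and lay 33853 bp from its TSS. The stronger of the 2 peaks of dpp, the BMP ligand, had 125, with 64.7 and 62.2, and lay 5246 bp from its TSS. The strongest peaks of the 12 targets with a peak by the rule had a median of 97.1. As at bap, some of these peaks lay nearest to the TSS of another gene. The median was above the 67.2 of the peaks assigned to the Hox genes and cofactors. That compares the strongest peak per gene with all peaks of a set.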

How the data were processed

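ChIP-seq peak lists from 2 replicates were used, on dm6 per the labels. Per the file headers, the lists derive from the alignments of 1 replicate or of both, with another input that the fold-over-control tracks share. The aligner and peak caller are not given in the sources used here. The signal value and the score, a scaled irreproducible discovery rate of 830 to 1000 in thresholded lists, are as deposited by the authors. Signals rank peaks within a list only. The lists give no depth, so intervals (exact Clopper-Pearson, 95%) cover the counting of peaks only. Another 10 columns of each ranked list fit no sample by name and were left out.

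Summits were placed on Ensembl release 115 (BDGP6.54) and the RefSeq genome of the same assembly, over 7 main chromosomes, with Python 3.11.15, scipy 1.17.1, pandas 2.3.3, numpy 2.4.6 and, for plots, matplotlib 3.10.9. Lists were matched by an overlap of 1 bp or more. The steps were tested on simulated peaks. There is 1 group, so no test between groups was made. All 10 members were named with each peak, and up to 4 genes per related list, by strongest peak. Members, lists and patterns were chosen with earlier results of these data known. The alternatives were other lists, scores, distances, overlaps and windows, and leaving out each replicate.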

Additional observations from a re-analysis of the deposited data

How the results depend on the processing

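The number of assigned peaks was 22, and 13 without replicate 1 (the list of replicate 2 alone) and 6 without replicate 2. The number of genes with a peak was 7, and 7 without replicate 1 and 4 without replicate 2, where pb, Dfd and Scr lost theirs. Summits per Mb in the Antennapedia complex were 26.6, and 23.7 without replicate 1 and 8.88 without replicate 2. In the bithorax complex they were 25.3, and 12.7 and 6.34, and in the rest of 3R 19.4, and 13.6 and 9.13. The median percentile of assigned peaks was 42, and 25.7 and 53.0, each within its own list. The replicates' own lists are shorter than the joint one. Under the other alternatives (a score of 1000, the conservative list, all ranked entries past the score, other distances, overlaps, windows and wider complexes) the counts and densities stayed within 1.5 times the values given, from 16 to 22 peaks and 5 to 7 genes. With entries that overlap counted once, an alternative chosen after seeing the data, there were 20 peaks. The share of assigned peaks in both replicates' lists ran from 18.2% to 23.8%. Of the 14 patterns, 8 had a higher share in the assigned windows than in all, and 8 and 9 with windows of 50 and 200 bp either side. No paired analysis was possible because there is 1 group. With no read counts, a missing peak says only that none passed the threshold.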
